A study of Mus musculus with 12 samples.

Results

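Core splicing factor and hnRNP genes were taken from the deposited mouse gene models by their symbols, as every gene name that begins with Hnrnp, Srsf, Sfrs, Snrp, Sf3a, Sf3b or U2af (a digit follows Srsf and Sfrs). The rule gave 55 of 35924 gene names, and 53 of these had at least 1 transcript with a protein identifier (p_id), among 22514 such coding genes in the file. Families were assigned by symbol alone, which puts Sfrs18 with the SR protein genes. By family the 53 were 12 SR protein genes, 18 hnRNP genes, 12 genes of small nuclear ribonucleoproteins (snRNPs), 8 genes of the SF3a and SF3b subunits and 3 U2AF genes. The other 2 names, Hnrnpa1l2-ps and Snrp1c-ps2, were pseudogene models with 1 transcript each and no p_id.

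The study sequenced polyA RNA of the nucleus accumbens (NAc), a reward region of the ventral striatum, from C57BL/6 mice (C57BL/6 J in the study's methods) whose labels give 8 to 10 weeks. The repeated cocaine group had 7 daily intraperitoneal injections of cocaine at 20 mg/kg, and its control group had 7 of saline. The acute group had 6 days of saline and then 1 day of cocaine at 20 mg/kg, again beside a saline group, and tissue was taken 24 h after the last injection. Each of the 4 groups had 3 pools, 12 in all, and a pool held the NAc of 3 to 5 animals per the labels. The models carried no value of any pool, so no group was compared, neither depth nor the tissue label could be checked, and every value is a count over gene models.

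Splicing removes introns from pre-mRNA in the spliceosome, whose U1 particle binds the start of an intron (the donor) and whose U2 particle, with U2AF and SF3a/SF3b, binds near its end (the acceptor). SR proteins mostly favour the use of exons they bind, and hnRNP proteins often oppose it, so the balance between them helps to set which exons are kept. Many SR protein and hnRNP genes are known to limit their own level through so-called poison exons, which bring in an early stop codon and send the mRNA to nonsense-mediated decay (NMD). Such exons are a known part of the control of these genes in brain and other tissues.

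The 55 gene names had 280 transcripts, 171 with a p_id and 109 (38.9%) without one. Over the 53 coding genes, 107 of 278 transcripts (38.5%) had no p_id, beside 30.2% of the transcripts of all coding genes. Of genes with 2 or more transcripts, 27 of 44 (61.4%) had a transcript without a p_id, beside 61.3% over all coding genes. The share of genes with such transcripts was thus at the background. The median was 4.5 transcripts among these 44 genes and 4 among the 12825 coding genes of that kind. In the reference annotation of the same genome, 57 of the 107 transcripts were typed as processed transcripts, 47 as retained introns and 3 as NMD. Over all coding genes, 10760, 10464 and 497 of 21920 had these types.

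A p_id was also given to transcripts that the reference types as NMD. Of the 171 p_id transcripts, 28 (16.4%) were of this type, beside 5.82% over all coding genes. U2af1l4 held 11 of these 28, and without it the share was 11.2%. Among genes with 2 or more transcripts, 11 of 44 (25%) had such a transcript, beside 15.3%. The remaining 143 p_id transcripts are called coding below, of which 1, at Srsf1, was not matched to the reference.

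**Figure D1:**
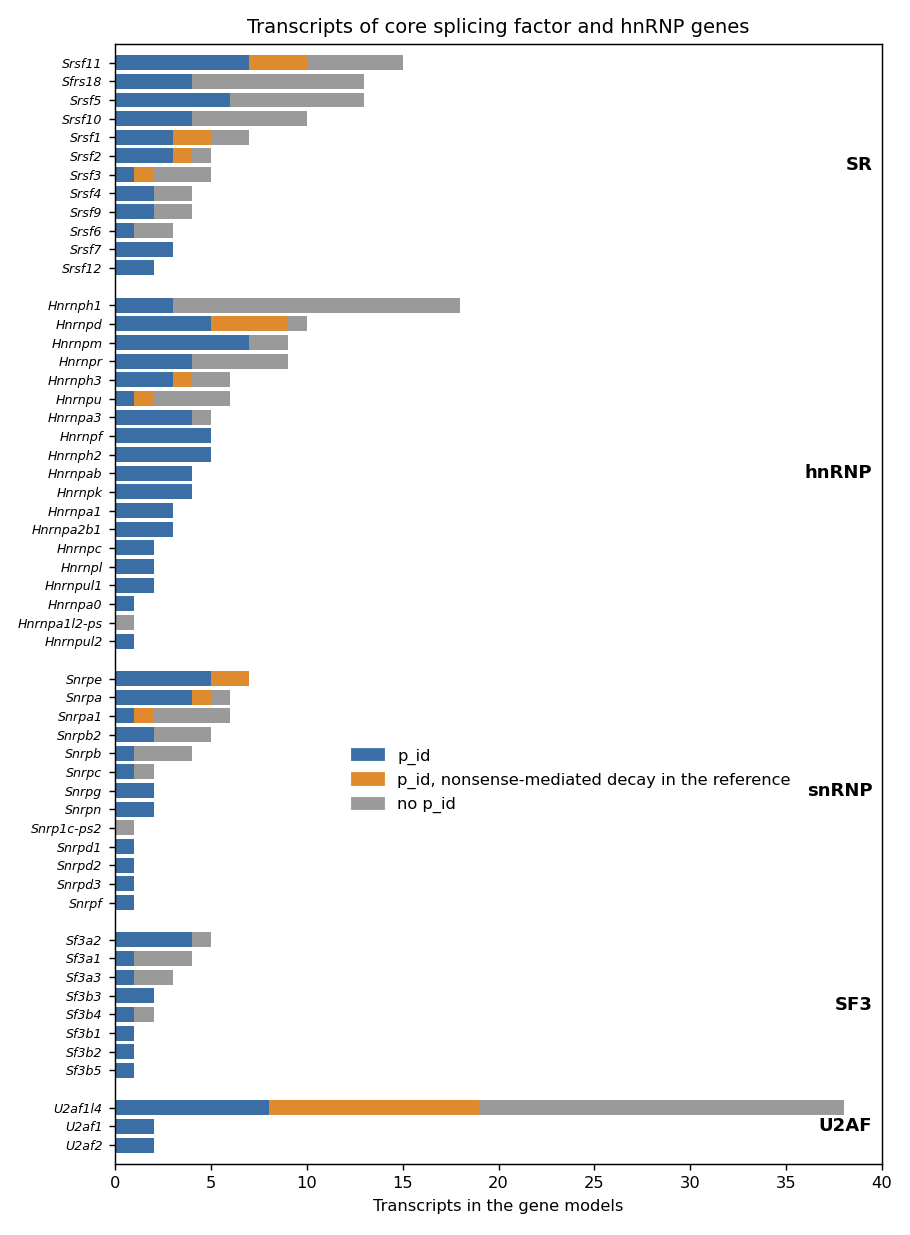
Number of transcripts of each of the 55 gene names, by family, split into p_id transcripts called coding, p_id transcripts that the reference types as NMD, and transcripts without a p_id. U2af1l4, with 38 transcripts, has the longest bar, and Hnrnph1 has the longest run of transcripts without a p_id for a gene with few p_id transcripts (15 against 3).

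The SR protein genes held 8 of the 14 cassette exons in which the reading frame met a stop codon, in Srsf3, Srsf6, Srsf9 and Srsf11. The 8 were among 12 SR cassette exons that followed a donor of the coding sequence. Over all coding genes, 20.6% of such exons met a stop. The 8 include 4 exons of Srsf11, 1 of them with the annotated stop of a coding transcript, and 2 forms of 1 Srsf6 exon. For the Srsf9 exon and the 76-base exon of Srsf11, 2 frames reached the donor and 1 was used. All 12 SR genes had 2 or more transcripts. Together they had 84 transcripts, 45 with a p_id, 7 of them typed as NMD, and 39 without a p_id. Exons of 2 kinds are described throughout. A cassette exon is an internal exon that another transcript of the gene skips with an intron joining exactly the neighbouring exon ends. An exon found only in transcripts without a p_id overlaps no exon of a p_id transcript of its gene by 1 base or more. The 12 genes held 13 cassette exons in 8 genes and 9 exons found only without a p_id in 5 genes.

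To place stop codons, the reading frame of the coding transcripts was carried across the donor joined to an exon. The exons in which that frame met a stop are shown for Srsf3, Srsf6, Srsf4, Srsf9, Srsf11, Snrpb and Snrpa, because no coding transcript included these exons. Each line gives the last 20 intron bases, which end at the acceptor, and the exon up to its first in-frame stop codon, which is in capitals. All are from the mm9 genome and read 5′ to 3′ on the transcribed strand.
Srsf3, chr17:29176379-29176432, plus strand: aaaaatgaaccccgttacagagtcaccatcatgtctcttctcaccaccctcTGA
Srsf6, chr2:162758531-162758702, plus strand: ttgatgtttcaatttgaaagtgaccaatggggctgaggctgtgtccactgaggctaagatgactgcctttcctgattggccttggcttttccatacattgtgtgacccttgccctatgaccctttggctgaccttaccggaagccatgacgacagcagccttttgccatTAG
Srsf4, chr4:131440171-131440305, plus strand: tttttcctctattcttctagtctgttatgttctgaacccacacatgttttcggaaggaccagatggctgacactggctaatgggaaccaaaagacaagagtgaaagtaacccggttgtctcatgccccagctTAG
Srsf9 exon of 90 bases, chr5:115781439-115781469, plus strand: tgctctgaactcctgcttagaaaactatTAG
Srsf11 exon of 109 bases, chr3:157687173-157687215, minus strand: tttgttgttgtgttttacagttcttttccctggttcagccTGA
Srsf11 exon of 117 bases, chr3:157686274-157686343, minus strand: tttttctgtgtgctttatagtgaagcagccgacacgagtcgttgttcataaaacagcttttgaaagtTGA
Snrpb, chr2:130002431-130002508, minus strand: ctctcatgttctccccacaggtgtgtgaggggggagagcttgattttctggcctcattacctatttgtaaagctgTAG
Snrpa, chr7:27979180-27979243, minus strand: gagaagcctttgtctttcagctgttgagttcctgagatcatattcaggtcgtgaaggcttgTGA

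Srsf3 encodes one of the smallest SR proteins, which also takes part in mRNA export. Its gene (chr17:29169618-29180311, plus strand) had 5 transcripts, 1 coding, 1 p_id transcript typed as NMD and 3 without a p_id, all of the last typed as retained introns. Its cassette exon of 456 bases (chr17:29176399-29176854) was included only by the NMD transcript and skipped by the coding one. The carried frame met a stop codon ending at base 34 of this exon, and the NMD transcript, read from the start codon, ended 548 bases before its last exon junction. A transcript without a p_id ended in a longer form of the exon (688 bases) with the same acceptor. Since the exon sits in a p_id transcript, a search for exons found only without a p_id does not return it.

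Srsf6 (chr2:162757264-162762857, plus strand) had 1 coding transcript and 2 without a p_id. Both of the latter included an exon that the coding transcript skipped, with 1 acceptor and 2 donors, so that the exon was 165 or 268 bases long (chr2:162758551-162758715 and chr2:162758551-162758818). The stop codon ended at base 152 in both forms, upstream of both donors. Read from the annotated start, the transcript with the longer form ended 534 bases before its last junction. The one with the shorter form ended 13 bases before it, and its model stops at the next exon.

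Srsf4 (chr4:131429532-131457621, plus strand) had 2 coding transcripts from separate first exons and 2 transcripts without a p_id. An exon of 207 bases (chr4:131440191-131440397) was internal in one of the latter, and a shorter form of 188 bases was the first exon of the other. The 207-base exon was joined to the coding donor of the first exon and met a stop at base 115, although the transcript that held it began inside the coding part of that first exon. The only annotated start codon in that transcript lay downstream of the exon, and reading from it met no stop in the 329 bases to the end of the model. It was not a cassette exon by the definition above, since further exons of the transcript lay between it and the next coding exon.

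Srsf10 encodes an SR protein known as a splicing repressor when it is dephosphorylated. Its gene (chr4:135411662-135425823, plus strand) had 4 coding transcripts and 6 without a p_id. An exon of 360 bases (chr4:135414757-135415116) was an internal exon in 1 transcript without a p_id, and a form of 390 bases with the same acceptor ended another. Both were joined to a longer form of the second exon rather than to its coding donor. The 3 transcripts without a p_id that held the start codon were each read for 210 bases to a stop, which lay 677 bases before the last junction in the transcript with the 360-base exon.

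Srsf11 (chr3:157673437-157699603, minus strand) had 15 transcripts, the most of the SR genes, with 7 called coding, 3 p_id transcripts typed as NMD and 5 retained introns without a p_id. It also had the most cassette exons of these genes (4). Those of 117 and 109 bases (chr3:157686207-157686323 and chr3:157687087-157687195) were each included by 2 NMD transcripts and by no coding one, and each was skipped by 3 coding transcripts. Parts of both exons lay in longer first or last exons of other coding transcripts, so they were not outside all coding exons. Their stop codons ended at bases 50 and 23. The cassette exons of 64 and 76 bases were each in 1 coding transcript and held a stop in the carried frame at bases 47 and 3. The stop of the 64-base exon was the annotated stop of its coding transcript. In the transcript with the 76-base exon, the reference places the start codon downstream of that exon.

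Srsf2, whose protein binds exonic enhancers and is a classical marker of nuclear speckles, had 3 coding transcripts, 1 NMD and 1 without a p_id. Its cassette exon of 104 bases (chr11:116712962-116713065) lay after the coding sequence. It was included by the NMD transcript alone, in which the stop codon lay 217 bases before the last junction. Here the stop was the usual one, and the junctions after it set the transcript apart. Srsf1 had 3 transcripts called coding, 2 NMD and 2 without a p_id, and its cassette exon of 187 bases was included by 1 coding transcript and skipped by 1 NMD transcript.

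Srsf5 showed intron retention rather than cassette exons. It had 6 coding transcripts and 7 without a p_id, and 7 introns of its p_id transcripts lay inside exons of transcripts without one, the most of any SR gene. It had neither a cassette exon nor an exon found only without a p_id. Srsf2 and Srsf3 each had 4 retained introns, and Srsf3 had a single exon running through several introns.

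Srsf9 had 2 coding transcripts and 2 without a p_id. It had a cassette exon with 2 acceptors, 90 or 79 bases long. The 90-base form (chr5:115781459-115781548) was in a transcript without a p_id and met a stop that ended at base 11. The 79-base form (chr5:115781470-115781548), in a coding transcript, began at the next base and met none, so the last bases of the stop codon were also the AG before the 79-base form. For both forms 2 frames reached the donor, and the stop is given for the one used. Neither Srsf9 transcript without a p_id held an annotated start codon. The 2 exons of Srsf9 found only without a p_id, of 43 and 65 bases, were first exons. Srsf7 had 3 coding transcripts and a cassette exon of 36 bases, the only one of the SR genes without a stop and with a length divisible by 3. Srsf12 had 2 coding transcripts and neither kind of exon. Sfrs18, a gene named for its arginine and serine rich protein, had 4 coding transcripts and 9 without a p_id. Its cassette exon of 1087 bases was the longest of the 48, and its exon found only without a p_id (377 bases) was a last exon with a stop ending at base 5.

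**Figure D2:**
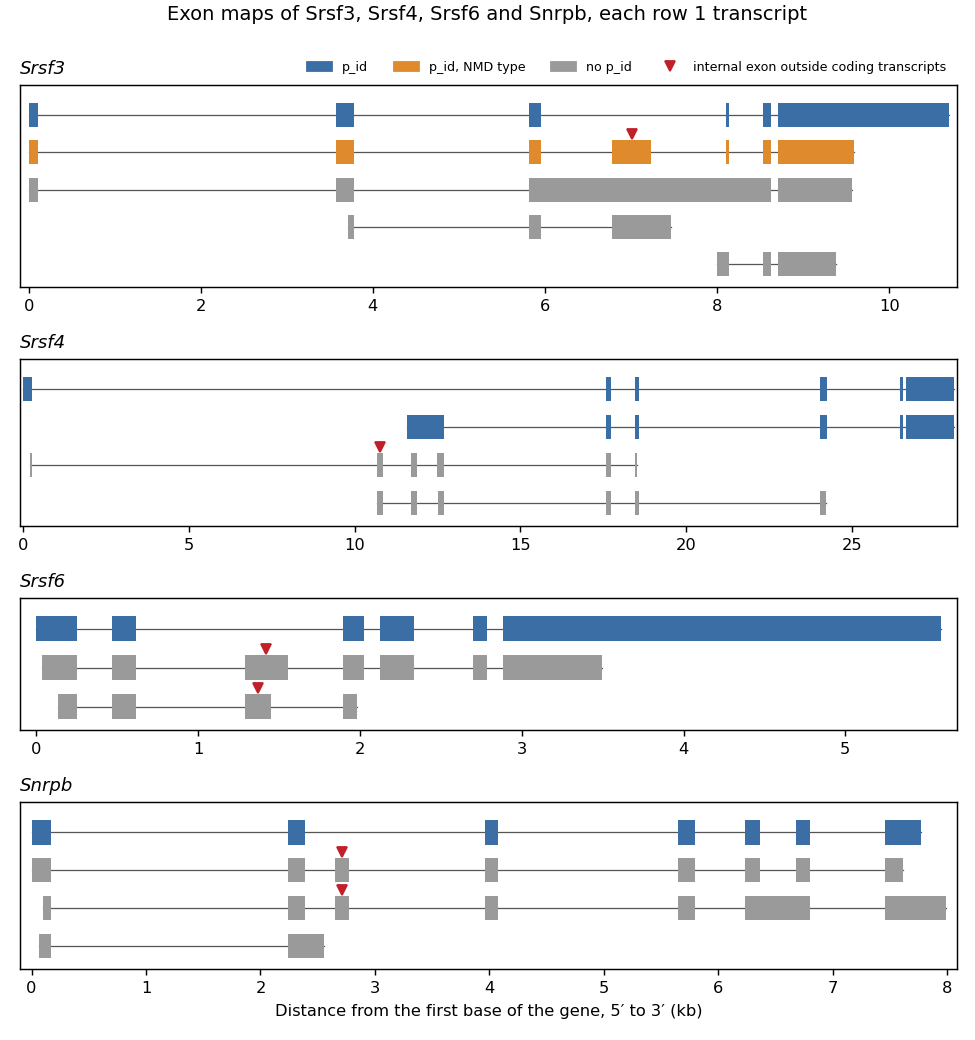
Exon maps of Srsf3, Srsf4, Srsf6 and Snrpb, with the distance from the first base of the gene in kb on the x axis and 1 transcript per row. Boxes are exons, coloured as p_id, p_id of NMD type or no p_id, and red triangles mark internal exons that overlap no exon of a coding transcript: the 456-base exon of Srsf3, the 207-base exon of Srsf4, both forms in Srsf6 (165 and 268 bases) and both forms in Snrpb (122 and 124 bases).

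Of the 20 cassette exons of the hnRNP genes, 7 followed a coding donor, held no stop and had a length divisible by 3. Over all coding genes, 4290 of 10828 cassette exons did so. The 18 genes had 95 transcripts, 65 with a p_id (6 of them typed as NMD) and 30 without. The 20 exons lay in 11 genes, and 12 were included by one coding transcript and skipped by another, beside 62.9% of the cassette exons of all coding genes. Of these 12, 8 had a length divisible by 3, beside 66.9%. Only 1 of the 12 exons that followed a coding donor held a stop in the carried frame.

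A length divisible by 3 was found in 9 of the 20 cassette exons of the hnRNP genes, beside 51.4% over all coding genes. Cassette exons of such a length were found in the genes of several major hnRNP proteins. Hnrnpa1, a splicing repressor, had one of 159 bases (chr15:103073353-103073511), Hnrnpa2b1 one of 120 bases (chr6:51414427-51414546) and Hnrnpab one of 141 bases (chr11:51415252-51415392). Hnrnpk, whose protein binds C-rich sequence, had one of 72 bases in the coding part and one of 54 bases that lay before the coding sequence. None of these 4 genes had a transcript without a p_id.

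Hnrnpd, which encodes a protein of AU-rich element mediated mRNA decay, had the most cassette exons of the hnRNP genes (5) in 10 transcripts. Its exons of 147 bases (chr5:100392750-100392896) and 57 bases (chr5:100405553-100405609) both had a length divisible by 3 and no stop in the carried frame. The 147-base exon was in 2 coding and 2 NMD transcripts and skipped by 2 and 2. A further exon of 107 or 71 bases, with 1 acceptor and 2 donors (chr5:100391117-100391223 and chr5:100391153-100391223), was included by NMD transcripts only and lay after the coding sequence, as in Srsf2.

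Hnrnph1, whose protein binds G-runs, had 18 transcripts, the most of the hnRNP genes, but only 3 with a p_id. All 15 without one were typed as processed transcripts. Its cassette exons of 139, 60 and 50 bases were in coding transcripts, and that of 50 bases held a stop that ended at its last base, which was the annotated stop of its 2 coding transcripts. A last exon of 145 bases was found only without a p_id and met a stop at base 26. Hnrnpu, which encodes a scaffold attachment and chromatin protein, had 1 coding and 1 NMD transcript beside 4 without a p_id, and a first exon of 262 bases found only without a p_id. Its NMD transcript held an internal exon of 71 bases (chr1:180255374-180255444) that followed a coding donor and met a stop at base 33. Hnrnpa0 and Hnrnpul2 had 1 transcript each.

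Hnrnpf and Hnrnph2, close relatives of Hnrnph1, had 5 p_id transcripts each, and all 5 shared 1 p_id. Their cassette exons (61 bases in Hnrnpf, 71 and 45 bases in Hnrnph2) lay before the coding sequence, so they did not alter the protein. Hnrnpm, Hnrnpr and Hnrnph3 had 1, 2 and 1 cassette exons. The 2 of Hnrnpr, 169 and 166 bases long, were 1 exon with acceptors 3 bases apart.

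Sm proteins form the ring around the snRNA of a snRNP, and most of their genes had few transcripts. Snrpd1, Snrpd2, Snrpd3 and Snrpf had 1 transcript each, and Snrpg had 2, both with a p_id. Snrpe had the most of the family, 7, all with a p_id and 2 of them typed as NMD. The 12 genes had 38 transcripts, 26 with a p_id and 12 without.

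Snrpb, the Sm B gene (chr2:129997150-130005139, minus strand), was the Sm gene with the most transcripts without a p_id. It had 1 coding transcript and 3 without a p_id, and the latter held its 2 cassette exons, forms of 1 exon of 124 or 122 bases (chr2:130002365-130002488 and chr2:130002365-130002486). In the 124-base form the exon was preceded by AG and followed by GT, the usual splice site bases. In the 122-base form, from a transcript typed as a retained intron, it was preceded by GT, and it was the only one of the 48 cassette exons without AG before and GT after. The 124-base form met a stop at base 58 and its transcript was read to a stop 596 bases before the last junction. The 122-base form met its stop at base 100, 859 bases before the last junction. With Srsf6, Snrpb was 1 of 2 genes with cassette exons found only without a p_id. Together the 2 genes held 4 such exons of the 48, 2 forms in each, beside 870 of 10828 over all coding genes. Snrpn, the imprinted relative of Snrpb expressed in brain, had 2 transcripts with 1 shared p_id and neither kind of exon.

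Snrpa, a U1 protein gene (chr7:27972024-27981290, minus strand), had 4 coding transcripts, 1 NMD and 1 without a p_id. Its cassette exon of 123 bases (chr7:27979101-27979223) was included by the NMD transcript and skipped by all 4 coding ones. Its length is divisible by 3, yet the carried frame met a stop at base 44. Snrpa1, a U2 protein gene, had 1 coding and 1 NMD transcript and 4 without a p_id. Its cassette exon of 80 bases belonged to the coding transcript and was skipped by the NMD one. Snrpb2, also of U2, had 2 coding transcripts and 3 retained introns, and Snrpc, of U1, had 1 of each.

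The SF3a and SF3b genes, whose proteins hold U2 at the branch site, had no cassette exon and no exon found only without a p_id. They had 19 transcripts, 12 with a p_id, none typed as NMD, and 7 without. Sf3a2 had the most, 5, of which 4 had a p_id. Sf3b1, the largest SF3b subunit and a frequent target of mutation in blood cancers, had 1 transcript, as had Sf3b2 and Sf3b5. The distinct exons numbered 25 in Sf3b1 and 30 in Sf3b3.

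The U2AF genes were uneven. U2af1 and U2af2, which encode the subunits that bind the acceptor AG and the pyrimidine tract before it, had 2 p_id transcripts each. In U2af1 the 2 transcripts differed by a pair of exons of 67 bases each that were never found together and shared their neighbours (chr17:31788591-31788657 and chr17:31789447-31789513, minus strand). Neither was a cassette exon, since each transcript held one of them. U2af2 had a cassette exon of 64 bases (chr7:5020335-5020398) that opened with a stop codon in the carried frame. The transcript with it is called coding, and the reference starts its coding sequence downstream of the exon.

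U2af1l4, a relative of U2af1, had 38 transcripts at chr7:31348320-31352979 on the plus strand, and no coding gene in the file had more. Of these, 8 were called coding, 11 were p_id transcripts typed as NMD and 19 had no p_id, over 3 groups of shared start site and 15 different p_ids. It held 9 of the 48 cassette exons, forms of 5 regions, and 12 of the 48 retained p_id introns. Only 2 of its 9 cassette exons had a stop-free frame and a length divisible by 3. It shared its locus identifier with Tmem149. As 1 gene it weighs on the sums over all members.

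Over all members, 25 of 44 genes with 2 or more transcripts (56.8%) had a cassette exon, beside 47.0% over all coding genes. There were 48 cassette exons, or 39 regions when overlapping ones are counted once, with a median length of 102 bases, beside 104 over all 10828. Lengths divisible by 3 were found in 18 of 48 (37.5%), beside 51.4%. Of the 21 that were included by one coding transcript and skipped by another, 11 (52.4%) were divisible by 3, beside 66.9%. No coding transcript included 15 of the 48 (31.2%), beside 17.3%.

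Of the 48, 39 followed a coding donor. The carried frame met a stop in 14 of the 39 (35.9%), beside 20.6% over all coding genes, and without U2af1l4 the share was 43.3%. The SR genes held 8 of the 14, the snRNP genes 3, the U2AF genes 2 and the hnRNP genes 1. Of the 12 that no coding transcript held, 10 met a stop, beside 1263 of 1565 over all coding genes. Of the 27 that a coding transcript held, 4 did, beside 599 of 7488. In 2 of the 14, in Hnrnph1 and Srsf11, the stop was the annotated stop of a coding transcript, beside 255 of 1862 over all coding genes. Another 10 had no stop and a length divisible by 3, beside 4290 of 9053 over all coding genes. The other 15, or 9 without U2af1l4, had no stop and would shift the frame, beside 2901 of 9053. These are counts over exons that in part overlap and share genes, so no test was made between the members and the other genes.

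**Figure D3:**
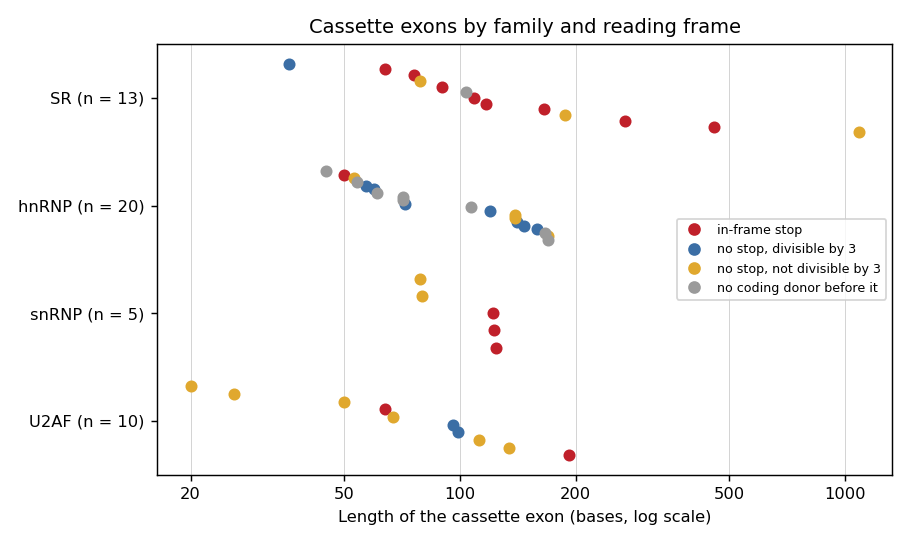
Length in bases (log scale) of the 48 cassette exons by family, ordered by length within a family, with 1 point per exon coloured by what the carried reading frame meets. In-frame stops make up 8 of the 13 SR points and 1 of the 20 hnRNP points, while 7 hnRNP exons have no stop and a length divisible by 3; the SF3 genes have none.

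Exons found only in transcripts without a p_id numbered 17 in 11 gene names. The pseudogenes Hnrnpa1l2-ps and Snrp1c-ps2 held 3 of these, and 14 were in 9 coding genes, or 9 of 44 genes with 2 or more transcripts (20.5%) beside 27.4% over all coding genes. By position, 5 of the 14 were first exons, 6 internal and 3 last. Over all coding genes, 3182, 1653 and 1659 of 6490 were found in these positions. All 14 lay inside an intron of a p_id transcript, as did 5245 of 6490 (80.8%) over all coding genes. Their lengths ran from 43 to 390 bases, with a median of 198, beside 136 over all 6490 such exons. The 7 that were joined to a coding donor all met an in-frame stop, and all 7 were closed by a stop in each of the 3 frames. They include 2 forms of the same exon in Srsf6 and 2 in Snrpb. Over all coding genes, 1550 of 1824 (85.0%) met an in-frame stop, and 1192 of 1824 (65.4%) had one in each frame.

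The rule by p_id and the rule by annotation type divided these exons differently. When the NMD transcripts were also set aside as not coding, 33 exons in 14 coding genes overlapped no coding transcript, of which 16 (48.5%) were in an NMD transcript with a p_id. Over all coding genes there were 8089 such exons in 4018 genes, 1434 of them (17.7%) in an NMD transcript. Most of the 16 were in U2af1l4, in part as overlapping forms, or in the NMD transcript of Hnrnpu. The poison-type exons of Srsf3 and Snrpa and the exons of Srsf2 and Hnrnpd after the coding sequence were also among the 16. The 13 of the 33 that followed a coding donor all met an in-frame stop, beside 2198 of 2582 over all coding genes. Several of the 13 were forms of the same exon, in Hnrnpu, Srsf3, Snrpb and Srsf6.

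Transcripts without a p_id also differed from the coding ones by whole introns. In 15 of 44 genes (34.1%) an intron of a p_id transcript lay inside an exon of a transcript without one, beside 20.2% over all coding genes. There were 48 such introns, 22 in the SR genes and 12 in U2af1l4.

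**Figure D4:**
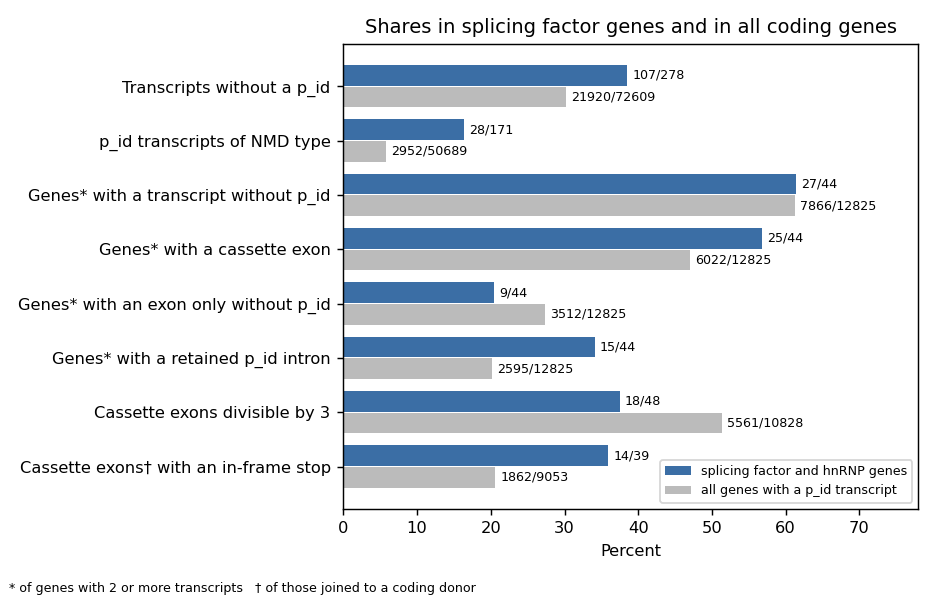
Percent of transcripts, genes or cassette exons with each feature in the 53 coding splicing factor and hnRNP genes and in all 22514 coding genes, with the counts beside each bar. The bars for genes with a transcript without a p_id are level (61.4% and 61.3%), and those for p_id transcripts of NMD type are 16.4% and 5.82%.

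Each transcript was then read from the annotated start codon that most coding transcripts of its gene use. The distance from the stop codon to the last exon junction was taken, since stops more than about 50 bases before that junction are known to favour NMD. Of 62 transcripts without a p_id that held a start and a stop, 31 (50%) ended more than 50 bases before the last junction, beside 36.8% over all coding genes. Of 21 NMD transcripts, 20 did (95.2%, beside 94.0%), and of 127 coding transcripts, 6 did (4.72%, beside 3.53%). These types are the reference's own calls on the reading frame, so the shares of these classes describe the annotation and are not an independent result. The start used here can differ from a transcript's own annotated start. That was so for the U2af2 coding transcript with the 64-base exon, which is among the 6. In 19 of the 19 NMD transcripts with an annotated start, the reading had the length of the reference coding sequence. U2af1l4 held 11 of the 31, and without it the share was 44.4%. Many models without a p_id end inside the gene, so the last junction of the model may not be that of the full mRNA.

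**Figure D5:**
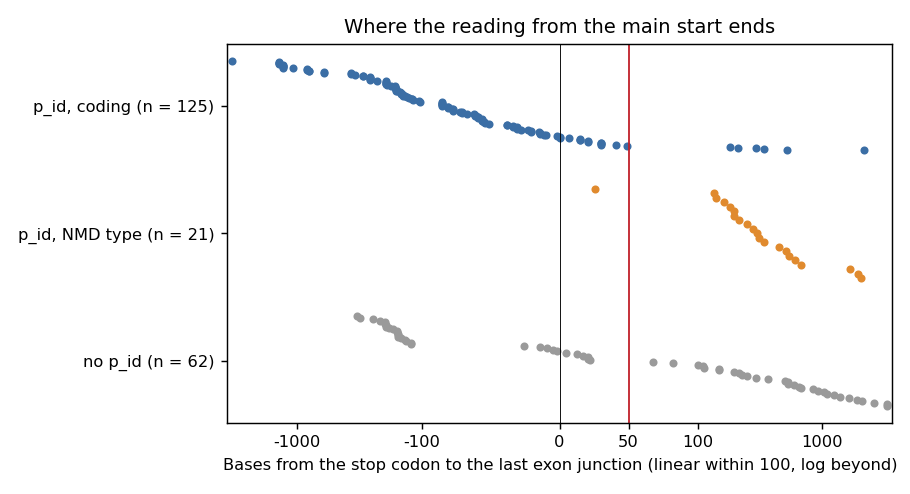
Bases from the end of the stop codon to the last exon junction for each member transcript with more than 1 exon, a start and a stop, in 3 classes (125 coding, 21 NMD and 62 without a p_id), ordered within a class; the axis is linear within 100 bases and logarithmic beyond. Points right of the red line at 50 bases end early when read from the gene's most used start, not always their own. There lie 20 of the 21 NMD transcripts, 31 of the 62 without a p_id and 6 of the 125 coding ones.

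Sequence around the cassette exons was searched on the transcribed strand for 2 hexamers. TGCATG, bound by the RBFOX family to which A2BP1 of the study belongs, was present in the 150 intron bases on either side of 8 of 48 exons (16.7%), beside 12.9% of all cassette exons, and without U2af1l4 the share was 20.5%. It was in the upstream flank of 7 of 48 (14.6%), beside 5.77%, and in the downstream flank of 3 (6.25%), beside 7.68%. The 8 were exons of Hnrnpa1, Hnrnpf, Snrpa, Snrpb, Srsf6 and Srsf11, with both forms of the Snrpb and Srsf6 exons counted. GAAGAA, a purine-rich hexamer of exonic enhancers, was present in 6 of 48 exons (12.5%), beside 10.7%, and without U2af1l4 the share was 15.4%. A match is not a binding site.

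Other genes of the splicing machinery were taken as a list of 63 names, of which 61 had a coding gene in the file. They had 366 transcripts, 146 (39.9%) without a p_id, and 36 of their 220 p_id transcripts (16.4%) were typed as NMD. A cassette exon was present in 31 of the 48 with 2 or more transcripts (64.6%), and 30 of 72 cassette exons (41.7%) had a length divisible by 3. A stop in the carried frame was met by 16 of 62 (25.8%). Tra2b, a relative of the SR proteins, had an NMD exon of 276 bases (chr16:22259059-22259334) with a stop at base 81. Rbm39, a U2AF-related coactivator, held 6 of the 16, and Ptbp1, a repressor of neuronal exons, had 1 of 117 bases that only a transcript without a p_id included.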

How the data were processed

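The authors deposited 1 table of gene models, exon start and end positions on mm9 (NCBIM37) with transcript, locus, start site and protein identifiers and no value per sample. CASAVA, TopHat, Cuffdiff and Cufflinks are the tools in the notes of the submitters, and the study's methods give an Ensembl annotation of this build. Tool versions: not given in the sources used here. All 280 member transcripts carry Ensembl models rather than assembled ones, so the counts describe an annotation, not RNA in the NAc.

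Groups were mapped from the labels, and no comparison between groups, test or paired fit was made. Transcripts were grouped by gene name, chromosome and strand. Transcript types, coding parts and start codons came from GENCODE M1 of the same build: 279 of 280 member transcripts were found there, 273 with identical exons, and over the file 85297 of 87158. No exon lay beyond a chromosome end. Frames came from coding transcripts whose coding parts follow their exons, 136 of 142. Where 2 frames reached a donor, that of most transcripts with a start codon was used. Sequences are from the mm9 genome, with 150 intron bases per flank for hexamers.

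Members, the list of other splicing genes, the hexamers and the rule for naming genes (all SR genes in full, and in other families those with the most or fewest transcripts and the most exons of either kind) were chosen with earlier results of these data known. Alternatives changed what counts as coding, a gene, a cassette exon and an exon found only without a p_id. Python 3.11.15, numpy 2.4.6, scipy 1.17.1 and matplotlib 3.10.9 were used. Simulated or small constructed models served to check the finding of cassette exons, exons only without a p_id and retained introns. The reading of frames and stops was checked in the same way (7 of 7 checks passed in all). Other steps, such as the hexamer search, were not checked so.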

Additional observations from a re-analysis of the deposited data

How the results depend on the processing

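Of 43 alternative values of 7 results, 32 stayed within 1.5 times the count reported, or within the 95% Wilson interval of the percent. Some of the 32 could not have moved. No member transcript had Cufflinks as its source, so leaving such transcripts out changed nothing. What counts as coding does not enter the cassette results, and the 2 pseudogenes have no p_id transcript or cassette exon. When every transcript of a protein-coding source counted as coding, 278 transcripts were coding in place of 171, 0.714% were not, and 3 exons in 2 gene names, both pseudogenes, were found only in transcripts that were not. When p_id transcripts typed as NMD did not count as coding, an alternative added after seeing the data, 48.9% of transcripts were not coding and 36 exons in place of 17 were found only in them. Cassette exons numbered 85 in place of 48 when any intron could skip them. Exons found only without a p_id numbered 217 in 29 gene names when a different start or end was enough, and 6 in 4 gene names when internal exons alone counted. Leaving out U2af1l4 and counting overlapping cassette exons once, both added after seeing the data, gave 39 cassette exons each. No paired analysis was possible because the gene models hold no value per pool. Read depth could not be examined, and how fully each gene was annotated was not tested.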

Other observations

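In Hnrnpm, an exon of 8 bases (chr17:33806114-33806121, minus strand) was in 5 transcripts, and 1 transcript had an exon of 61 bases in its place (chr17:33807018-33807078). Together with the 53-base cassette exon of the gene, which begins at the same base as the 61-base one on the transcribed strand and has its donor 8 bases nearer, the 8-base exon has the same summed length as that exon. The locus identifiers of Hnrnpm, Hnrnpu and U2af1l4 were also given to transcripts of another gene name, and grouping by locus added 5 transcripts to the members, 4 of them with a p_id.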
